A study of Mus musculus with 161 samples.

Results

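DNA replication genes encode the proteins that copy the genome in S phase, and 44 of them were followed through 3 stages of mouse monocyte development. The set was chosen by the known role of each gene product, but with earlier results of these data known. All 44 were found among the 43280 gene rows of the deposited expression table. They fall into 11 roles, which order the results below. The series, which concerns the expression history of Ms4a3 as a trace of monocyte-derived cells, holds 161 libraries of single primary cells from untreated C57BL/6 mice. 66 of the cells were common monocyte progenitors of the bone marrow (cMoP), sorted as Lin- CD117+ CD115+ CD135- Ly6C+ cells. 57 were bone marrow (BM) monocytes, sorted by the same markers but as CD117- cells and called marrow monocytes here, and 38 were blood monocytes, sorted as CD115+ CD11b+ Ly6Chi cells. Each library came from 1 cell captured on a Fluidigm C1 chip, and only cells with good cDNA had been carried on to a library. No label names an animal, so each population is 1 sample: differences are given as sizes, with no test and no p-value, and an SD or an interval covers the spread or the counting of cells only.

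Replication begins when the origin recognition complex, with Cdc6 and Cdt1, loads the ring-shaped MCM helicase onto DNA before S phase. Cdc45, the GINS complex and Mcm10 then switch the helicase on, polymerase alpha with primase starts each new strand, and the sliding clamp Pcna, set onto DNA by the RFC clamp loader, holds polymerases delta and epsilon in place. Many of these genes are transcribed at the entry to S phase under E2F transcription factors, and their transcripts are therefore used as marks of cycling cells. The cMoP is known as a dividing progenitor, while classical monocytes in blood are known as non-dividing cells.

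Binding words of E2F and of NF-Y, a general activator, are known features of replication gene promoters. The promoters of Mcm6, Mcm5 and Pola1 are shown because they hold an E2F word, and those of Rrm1 and Slbp because they do not. Slbp was also held by most cells of every population. RefSeq windows of 250 bases before to 50 bases after the start (build GRCm38.p6) were at hand for 36 of the 44 members. Printed are the 200 bases before the start, 5′ to 3′ on the strand of the gene, with capitals for a match to TTTGGCGC or TTTCCCGC on either strand.
Mcm6, chr1:128359706-128359905, minus strand: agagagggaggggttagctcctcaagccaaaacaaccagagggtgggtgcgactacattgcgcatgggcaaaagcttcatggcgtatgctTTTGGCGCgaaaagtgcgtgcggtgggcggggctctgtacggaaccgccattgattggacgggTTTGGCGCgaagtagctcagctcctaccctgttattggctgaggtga
Mcm5, chr8:75109309-75109508, plus strand: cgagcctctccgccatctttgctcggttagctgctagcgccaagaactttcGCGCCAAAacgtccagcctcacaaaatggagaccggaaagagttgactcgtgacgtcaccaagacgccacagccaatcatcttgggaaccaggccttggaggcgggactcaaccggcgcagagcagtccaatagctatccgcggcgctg
Pola1, chrX:93632156-93632355, minus strand: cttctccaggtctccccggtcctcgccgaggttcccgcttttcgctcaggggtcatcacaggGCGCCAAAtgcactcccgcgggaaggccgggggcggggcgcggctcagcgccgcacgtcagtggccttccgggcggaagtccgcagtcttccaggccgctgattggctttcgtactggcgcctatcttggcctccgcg
Rrm1, chr7:102441495-102441694, plus strand: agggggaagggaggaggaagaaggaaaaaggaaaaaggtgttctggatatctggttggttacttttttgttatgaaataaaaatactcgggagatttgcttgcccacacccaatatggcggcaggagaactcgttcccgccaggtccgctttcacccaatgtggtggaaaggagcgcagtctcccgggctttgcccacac
Slbp, chr5:33652575-33652774, minus strand: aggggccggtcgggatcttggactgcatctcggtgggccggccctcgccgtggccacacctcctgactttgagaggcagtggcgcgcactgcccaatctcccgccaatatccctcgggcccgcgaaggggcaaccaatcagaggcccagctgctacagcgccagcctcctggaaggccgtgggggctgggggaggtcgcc
The Mcm6 window holds TTTGGCGC at 2 places, whose leading bases lie 110 and 47 bases before the start, and the Mcm5 and Pola1 windows hold it at 1 place each on the opposite strand. The Rrm1 and Slbp windows hold neither E2F word and have CCAAT, the NF-Y word, at 2 and 3 places.

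Over all 36 windows, 11 members (30.6%) held at least 1 of the E2F words: Cdc6, Cdt1, Gins3, Mcm3, Mcm5, Mcm6, Mcm7, Pola1, Pold1, Pole2 and Rfc3. The share was 1.80% of all 27025 genes with a window of the same length. CCAAT on either strand was found in 23 members (63.9%), against 41.1% of all genes, and an E2F word together with CCAAT in 7 members (19.4%), against 0.759% of all genes. TTTGAA, the CHR word of many mitosis promoters, was found in 5 members (13.9%), against 20.2% of all genes. Matches of different words did not overlap in the members' windows (0 overlaps). A match is a run of letters and not a bound site, and a window without one says only that these letters are absent from it.

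Values are TPM, a level of transcripts corrected for their length that sums to about the same total in every cell. A member was called held by a cell when it lay above 10 TPM there, and the difference between populations was that of the mean over cells of log2(TPM + 1), which understates differences of genes with low values. Measured genes are those for which 10% or more of the cells in some population exceeded 1 TPM. All 44 members passed, each of them in cMoP, 41 also in marrow monocytes and 23 also in blood monocytes. TPM keeps no read depth, and an exact 0 may be a transcript lost in capture.

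The libraries differed in ways that touch these genes. The median cell had 6661.5 genes above 1 TPM among cMoP, 4719 among marrow monocytes and 4319.5 among blood monocytes. 60 cMoP libraries came from 1 flow cell and 6 carry none in their label, while marrow and blood monocytes shared a flow cell and lane, so the population and the flow cell cannot be told apart for cMoP against monocytes. The 11 cMoP with over 15% of TPM in mitochondrial rows held 11 to 27 members, and the other 55 held 19 to 43. The 6 cMoP with no flow cell in the label, which had 8720 to 9971 genes above 1 TPM, held 37 to 43 members. Kit, the gene of CD117, exceeded 10 TPM in 32 of 66 cMoP, in 0 of 57 marrow monocytes and in 0 of 38 blood monocytes. Ms4a3 did so in 60, 0 and 0 cells, and Csf1r, the gene of CD115, in 50, 41 and 34. Blood monocyte 29 went against its label, with 36.8 TPM of Ly6c2 and 377 TPM of Lyz2, the lowest Lyz2 of any blood monocyte, against medians of 2496 and 53611 TPM over all of them. It also had the lowest ribosomal protein share, 0.954% of TPM. Low Ly6c2 was not confined to this cell: 35 of 38 blood monocytes were above 10 TPM, and the lowest value was 6.48 TPM. No index pair was shared within a flow cell (0 of 155 libraries with a flow cell in the label), and 0 pairs of columns were identical.

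All 44 members were lower in marrow monocytes than in cMoP, each by at least 1 log2 unit, a size reached downward by 30.8% of the 14003 measured genes (73.5% were lower by any amount). 41 were lower by at least 2 log2 units, against 12.3% of measured genes, with Gins3 at -1.23, Gins4 at -1.69 and Orc1 at -1.88 as the exceptions. The median difference was -3.85, beside -0.45 over all measured genes. All members passed the filter in cMoP, while the background also holds genes that passed only in monocytes. Genes near 0 in cMoP cannot be lower by such sizes, so the backgrounds are not fully alike. With a filter of 25% of cells, which all 44 members passed, the shares were 42.4% and 17.2% and the median over all genes was -0.80. Among cells with 4500 to 6000 genes above 1 TPM (33 marrow monocytes and 17 cMoP), 25 of the 43 members measured there were lower by at least 2 log2 units, against 3.30% of genes, and the median was -2.22 beside -0.08 over all genes. Once libraries with a high mitochondrial or low ribosomal protein share were taken from that subset, which left 31 marrow monocytes and 7 cMoP, 34 of 43 were lower by at least 2, against 10.2% of genes. As a log2 ratio of the means of TPM, which weights the few cells with high values, 19 members were lower by at least 2 log2 units, against 10.2% of genes, and the median was -1.93 beside -0.08 over all genes.

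Blood monocytes were lower again for most members. By the mean of logs this step was the smaller of both, and by the ratio of means it was the larger, with medians of -2.94 for blood monocytes minus marrow monocytes and -1.93 for marrow monocytes minus cMoP. Against marrow monocytes, 42 of 44 were lower, in a background of 59.8% of measured genes, 18 by at least 1 log2 unit (background 9.66%) and 3 by at least 2 (background 1.46%). The 3 were Rfc1 at -2.36, Pcna at -2.30 and Rfc2 at -2.06, all of the clamp and its loader. The median was -0.74, beside -0.10 over all measured genes, and Timeless at 0.69 and Pola1 at 0.03 were not lower. Without blood monocyte 29 the counts were 43, 18 and 3 with a median of -0.73, and Pola1 was at -0.04. By the ratio of means 29 members were lower by at least 2 (background 11.8%), and among cells with 4500 to 6000 genes (14 blood and 33 marrow monocytes) 29 were lower by at least 1 (background 13.4%) and 11 by at least 2 (background 3.26%). Blood monocytes against cMoP gave a median of -5.08 beside -0.58 over all genes, with all 44 lower by any amount (background 73.1%), 44 by at least 1 (background 37.7%) and 42 by at least 2 (background 18.3%). With a filter of 25% of cells the last 2 backgrounds were 51.8% and 25.5%. For blood against marrow monocytes that filter gave 13.4% lower by at least 1 and 2.04% by at least 2.

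**Figure D1:**
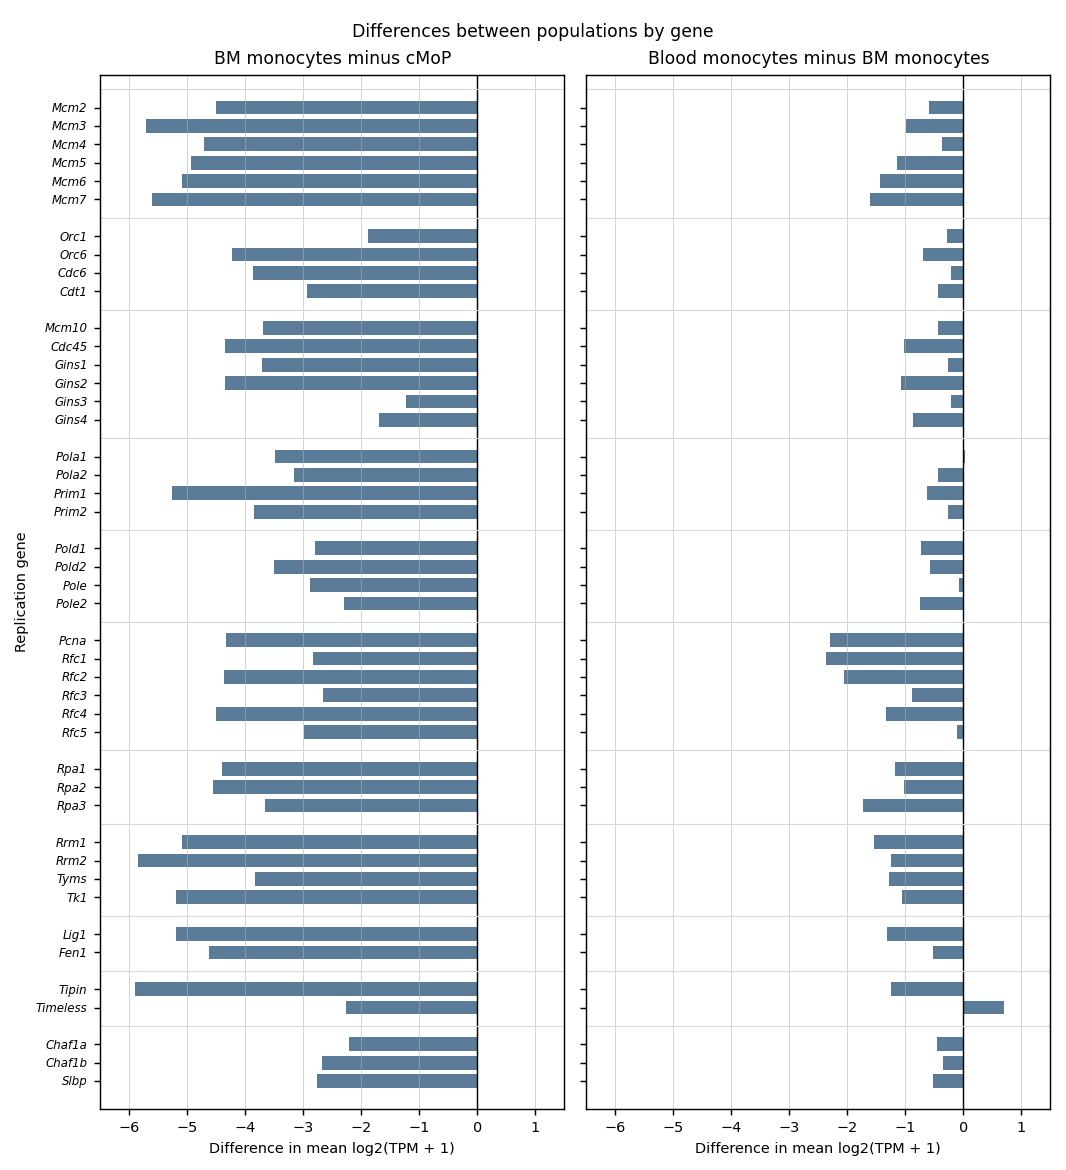
Difference in mean log2(TPM + 1) for each of the 44 replication genes, grouped by role, in marrow monocytes minus cMoP (left) and in blood monocytes minus marrow monocytes (right). All bars on the left lie below 0, from -5.89 for Tipin to -1.23 for Gins3, while those on the right run from -2.36 for Rfc1 to 0.69 for Timeless.

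The replicative helicase MCM2-7, the ring that unwinds DNA at the fork, was among the roles with the larger differences. Its 6 genes summed to a median of 1358 TPM in cMoP (44.99 to 3041), 32.7 TPM in marrow monocytes (0 to 2996) and 2.54 TPM in blood monocytes (0 to 1386). The ranges of all 3 populations overlap, and the median difference of the 6 genes was -5.01 for marrow monocytes against cMoP. Mcm3 was listed at 0 to 1100 TPM in cMoP (median 265), 0 to 579 TPM in marrow monocytes (median 0) and 0 to 1272 TPM in blood monocytes (median 0), with a difference of -5.71 for marrow monocytes minus cMoP. Mcm7 lay above 10 TPM in 60 of 66 cMoP (90.9%, 95% exact interval 81.3 to 96.6%), in 14 of 57 marrow monocytes (24.6%, 14.1 to 37.8%) and in 0 of 38 blood monocytes, which allows a share as high as 7.89% (the limit used for a count of 0 is 3 cells, and the exact interval reaches 9.25%). Mcm2 and Mcm6 were likewise above 10 TPM in 0 blood monocytes. Mcm4 was the MCM2-7 gene with the most blood cells: 7 of 38 blood monocytes (18.4%) held it, against 14 of 57 marrow monocytes (24.6%), and its mean of 65.8 TPM in blood came mainly from blood monocytes 12, 7 and 24 at 1382, 495 and 285 TPM, with a median of 0.

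Origin recognition and helicase loading genes were held by few monocytes of either kind. Orc6, a small subunit of the origin recognition complex, had a median of 63.2 TPM in cMoP (0 to 592) and medians of 0 in marrow monocytes (highest 373 TPM) and blood monocytes (highest 450 TPM). Cdc6, the loading factor that binds the origin recognition complex, lay above 10 TPM in 40 of 66 cMoP (60.6%), 3 of 57 marrow monocytes (5.26%) and 1 of 38 blood monocytes (2.63%). Cdt1, its partner, whose protein is destroyed in S phase, gave 36, 5 and 1 cells. Orc1, the large subunit known to cycle in mammalian cells, was held by 22 of 66 cMoP (33.3%) and 3 of 57 marrow monocytes, with a median of 0 in cMoP and a difference of -1.88. The median difference of the 4 genes was -3.40 for marrow monocytes against cMoP and -0.37 for blood monocytes against marrow monocytes.

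Helicase activation genes split by level. Cdc45, the subunit that completes the active helicase, had a median of 111 TPM in cMoP (0 to 1788), and medians of 0 in marrow monocytes (highest 510 TPM) and blood monocytes (highest 10.4 TPM). Of the GINS complex, Gins2 was held by 49 of 66 cMoP (74.2%) and Gins1 by 44 (66.7%), while Gins4 was held by 27 (40.9%) and Gins3 by 14 (21.2%). The subunits work as 1 complex, but their transcripts were held by cMoP in very unequal shares. Gins3 was at 0.57 TPM at most in blood monocytes. Gins4 was the only member of the 43 measured there that was higher in marrow monocytes, by 0.76, among cells with 4500 to 6000 genes. Mcm10, which helps the switch to an active helicase, was held by 42 cMoP, 5 marrow monocytes and 1 blood monocyte.

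Polymerase alpha and primase start each strand, and some of their transcripts were still seen in monocytes at low levels. Pola2, the accessory subunit, had the least spread of all members in cMoP, with 0 to 256 TPM, a median of 38.2 TPM and an SD of 1.16 log2 units over 66 cells. It lay above 1 TPM in 45 of 57 marrow monocytes (78.9%) and 25 of 38 blood monocytes (65.8%), with medians of 3.06 and 2.06 TPM, but above 10 TPM in 5 and 3 of them. Pola1, the catalytic subunit, was held by 55 of 66 cMoP (83.3%), 12 of 57 marrow monocytes (21.1%) and 10 of 38 blood monocytes (26.3%, 13.4 to 43.1%), and its mean level was 9.76 TPM in blood monocytes and 9.56 TPM in marrow monocytes. The primase subunits had fewer blood cells: Prim1, the catalytic subunit, was held by 55 cMoP, 6 marrow monocytes and 0 blood monocytes, and Prim2, the large subunit, by 55, 14 and 6. The 4 replicative polymerase genes for delta and epsilon were low throughout, with cMoP medians of 36.7 TPM for Pold2, 19.8 TPM for Pold1, 10.1 TPM for Pole and 7.02 TPM for Pole2. Pole2 was listed at 0 in all 38 blood monocytes. The mean of Pole in blood monocytes, 25.5 TPM, came from blood monocyte 29 at 962 TPM, and no other blood monocyte was above 1.18 TPM.

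The sliding clamp and clamp loader were the role with the highest sum in marrow monocytes. The 6 genes summed to medians of 1237 TPM in cMoP, 293 TPM in marrow monocytes and 12.98 TPM in blood monocytes. Pcna, the clamp, had 0 to 1544 TPM in cMoP (median 376), 0 to 1508 TPM in marrow monocytes (median 5.90) and 0 to 287 TPM in blood monocytes (median 0). It was held by 62 of 66 cMoP (93.9%), 28 of 57 marrow monocytes (49.1%, 35.6 to 62.7%) and 7 of 38 blood monocytes (18.4%, 7.74 to 34.3%). Rfc1, the large loader subunit, was held by 63, 29 and 5 cells and Rfc2 by 62, 20 and 4. For Rfc3, Rfc4 and Rfc5 the marrow monocytes counted 8, 12 and 9 cells. The clamp and its loader are also known to act in DNA repair.

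RPA, the trimer that coats single-stranded DNA, had a median sum of 379 TPM in cMoP and medians of 0.69 TPM in marrow monocytes and 0 in blood monocytes. Rpa1, the large subunit, was held by 54 cMoP, 9 marrow monocytes and 0 blood monocytes, Rpa2 by 53, 8 and 0, and Rpa3 by 57, 17 and 2. The 3 subunits differed by -4.39, -4.55 and -3.65 for marrow monocytes minus cMoP. Deoxynucleotide supply genes, which make the building blocks of DNA, had the most negative median difference of the 11 roles, -5.15. Rrm2, the small subunit of ribonucleotide reductase, had the highest mean of the 44 members in cMoP, 499.7 TPM. It had 0 to 1839 TPM per cell in cMoP (median 424), 0 to 1367 TPM in marrow monocytes (median 0) and 0 to 782 TPM in blood monocytes (median 0). Rrm1, the large subunit, was held by 62 of 66 cMoP (93.9%), 11 of 57 marrow monocytes (19.3%) and 0 of 38 blood monocytes, where its highest value was 1.5 TPM. Tyms, thymidylate synthase, was held by 57, 22 and 8 cells, and reached 2010 TPM in 1 marrow monocyte. Tk1, thymidine kinase, was above 1 TPM in 18 of 38 blood monocytes (47.4%) but at most at 8.53 TPM there.

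Okazaki fragment maturation was carried by Lig1, the ligase that seals the fragments, and Fen1, the flap nuclease. Lig1 had 0 to 766 TPM in cMoP (median 148), 0 to 554 TPM in marrow monocytes (median 0) and at most 0.51 TPM in blood monocytes, with 59, 10 and 0 cells above 10 TPM. Fen1 was held by 51, 6 and 2 cells. The pair of fork protection genes differed from each other. Tipin and Timeless form 1 complex that travels with the fork, yet Tipin had the largest difference of the 44 members, -5.89, and Timeless, at -2.26, the fifth smallest. Tipin had 0 to 1320 TPM in cMoP (median 293) and medians of 0 in marrow monocytes and blood monocytes, held by 61, 12 and 2 cells. Timeless had 0 to 434 TPM in cMoP (median 49.8), 0 to 724 TPM in marrow monocytes (median 10.4) and 0 to 146 TPM in blood monocytes (median 20.3). It was held by 59 of 66 cMoP (89.4%), 29 of 57 marrow monocytes (50.9%, 37.3 to 64.4%) and 26 of 38 blood monocytes (68.4%, 51.3 to 82.5%), and the intervals of both monocyte populations overlap. Its direction between monocytes depended on the measure: 0.69 in mean log2 for blood minus marrow monocytes, -0.54 as a ratio of means and -0.13 among cells with 4500 to 6000 genes.

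Chaf1a and Chaf1b, subunits of the factor that puts histones onto new DNA, were held by 27 and 40 cMoP, by 4 and 4 marrow monocytes and by 0 blood monocytes. Slbp, which binds the stem-loop of histone mRNAs, had 1.47 to 1196 TPM in cMoP (median 229), 0 to 1078 TPM in marrow monocytes (median 14) and 0 to 1273 TPM in blood monocytes (median 12.2). Its difference for blood minus marrow monocytes was -0.53 in mean log2, and -1.70 among cells with 4500 to 6000 genes above 1 TPM. Slbp was held by 65 of 66 cMoP (98.5%), 33 of 57 marrow monocytes (57.9%, 44.1 to 70.9%) and 21 of 38 blood monocytes (55.3%, 38.3 to 71.4%). Slbp and Timeless were thus the 2 members above 10 TPM in most blood monocytes, while the next were Pola1 with 10 cells, Tyms with 8 and Mcm4 and Pcna with 7 each.

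**Figure D2:**
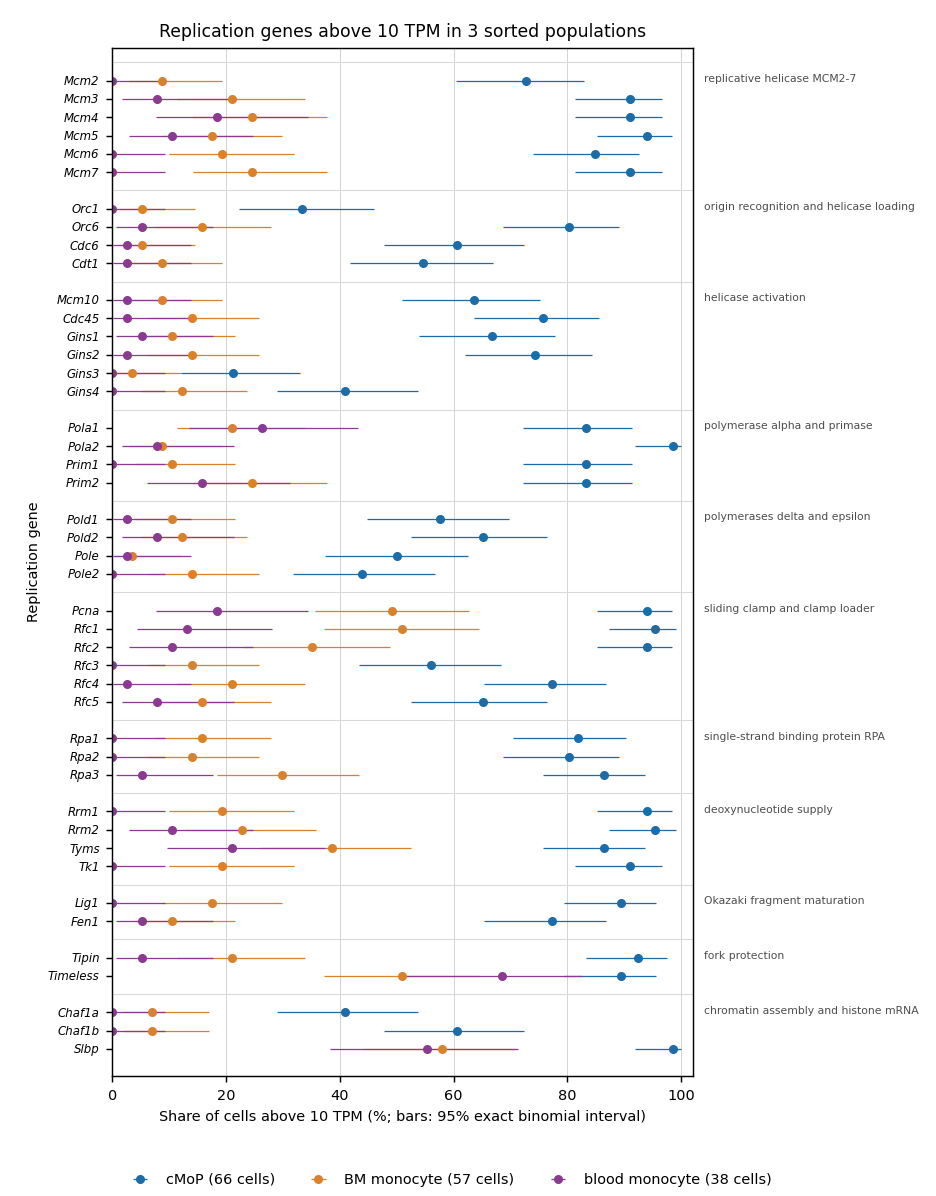
Share of cells above 10 TPM for each of the 44 replication genes, by role, in cMoP (66 cells), marrow monocytes (57) and blood monocytes (38), with 95% exact binomial intervals over cells as bars. The cMoP lie to the right for every gene, and Slbp and Timeless are the only genes above 50% in blood monocytes (55.3% and 68.4%).

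In cMoP the order of mean levels ran from Rrm2 (499.7 TPM), Pcna (469.5 TPM), Tyms (388 TPM), Mcm3 (327 TPM) and Tipin (319.6 TPM) down to Orc1 (36.9 TPM), Gins4 (34.95 TPM) and Gins3 (13.7 TPM). The SD over cells ran from 1.16 log2 units for Pola2 to 3.22 for Cdc6. For 41 of the 43 neighbouring pairs in that order, the means of log2(TPM + 1) differed by less than the smaller SD of both, and the other two pairs both include Pola2. Pairs of members correlated weakly from cell to cell, which in sparse values is no finding: over 49 cMoP without high mitochondrial share and with a flow cell in the label, the median Spearman correlation over the 946 pairs of members was 0.08 (-0.47 to 0.54), and 0.15 over the 15 pairs of MCM2-7. The most correlated pairs were Tyms with Pcna (0.54), Pold2 with Mcm2 (0.49) and Pole with Mcm2 (0.48). These cells share a flow cell and their depth is unknown, so the values are descriptions. Over the 57 marrow monocytes, the same median was 0.27 (-0.22 to 0.69), and 0.35 over the MCM2-7 pairs.

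Counted per cell, the members differed between the populations too. A cMoP held 11 to 43 of the 44 members (median 35), a marrow monocyte 0 to 34 (median 5) and a blood monocyte 1 to 10 (median 3). Their summed level was 1904 to 11826 TPM in cMoP (median 7021), 4.06 to 12477 TPM in marrow monocytes (median 926) and 39.1 to 2501 TPM in blood monocytes (median 304). As a share of all TPM the medians were 0.702%, 0.0927% and 0.0304%. The counts have no share of all genes above 10 TPM beside them, and the median cell had 6661.5, 4719 and 4319.5 genes above 1 TPM. Over the 66 cMoP, members held and genes above 1 TPM had a Pearson correlation of 0.65 (Spearman 0.64). Over the 49 cMoP without high mitochondrial share and with a flow cell in the label it was 0.38 (Spearman 0.39). The part of genes per cell was not tested. Cells were said to hold the set when at least 11 members lay above 10 TPM, which was true of 66 of 66 cMoP, 13 of 57 marrow monocytes (22.8%, 12.7 to 35.8%) and 0 of 38 blood monocytes, which allows up to 7.89% by the same limit (exact interval up to 9.25%). The lowest count of a marrow monocyte inside the limit was 15 and the highest outside was 9. With a limit of 6 members 22 marrow monocytes held the set, and with a limit of 22 members 6 did. Blood monocyte 29, the library with the lowest Lyz2 of the blood monocytes, had the highest count in blood, 10, and blood monocyte 11 had 9. The other 36 blood monocytes held 1 to 5. Blood monocyte 29 had 962 TPM of Pole, 146 TPM of Timeless and 137 TPM of Tyms. Blood monocyte 11, which had 3575 TPM of Ly6c2, had 361 TPM of Rpa3, 161 TPM of Rfc2 and 51.1 TPM of Fen1. No MCM2-7 gene was above 10 TPM in blood monocyte 11.

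**Figure D3:**
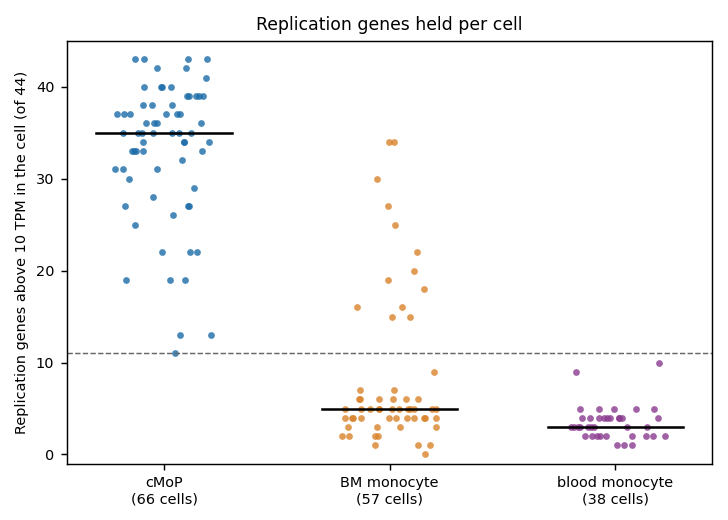
Number of the 44 replication genes above 10 TPM in each cell of the 3 populations, 1 point per cell, with the median as a bar and the limit of 11 genes as a dashed line. The cMoP (median 35) all lie on or above the line, 13 of 57 marrow monocytes lie above it at 15 to 34 genes, and all blood monocytes lie below it at 1 to 10.

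The 13 marrow monocytes that still held replication genes had 15 to 34 members each, and these counts chose the cells, so what follows about the members describes them and is no test. Marrow monocytes 22 and 33 held 34 members each, close to the cMoP median of 35. Marrow monocyte 22 had 1109 TPM of Tyms, 913 TPM of Slbp, 812 TPM of Rrm2 and 143 TPM of Mcm2, and marrow monocyte 33 had 1311 TPM of Rrm2, 972 TPM of Mcm4, 948 TPM of Mcm5 and 332 TPM of Cdc6. Marrow monocyte 49 had 1508 TPM of Pcna, the highest of any marrow monocyte, with 1186 TPM of Rfc4 and 451 TPM of Cdc6. Next in number came marrow monocyte 10 with 30 members, 49 with 27, 31 with 25, 37 with 22, 42 with 20, 35 with 19 and 18 with 18, and then marrow monocytes 2 and 4 with 16 and 23 and 40 with 15. The summed level ran from 2762 to 12477 TPM, inside the cMoP range save at the top.

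The members differed in how far they were confined to these cells. Of the Tipin TPM summed over marrow monocytes, 99.7% lay in the 13 cells, as did 99.7% of Chaf1a, 99.6% of Lig1, 99.1% of Mcm2, 98.9% of Rrm1 and 97.5% of Rrm2, and Cdc6 was at 0 in the other 44 cells. At the other end were Slbp with 40.9%, Timeless with 39.4%, Rfc1 with 37.2%, Chaf1b with 26.2%, Gins3 with 16.8% and Orc1 with 10.4%. Counted as cells above 10 TPM, Rrm2 was held by 11 of the 13 and 13 of all 57, Lig1 by 10 and 10, Tyms by 12 and 22, Pcna by 11 and 28 and Slbp by 12 and 33. Several of the low shares rested on 1 cell. Without the highest cell outside the 13, the share of Orc1 was 69.5% (that cell had 550 TPM), of Chaf1b 83.5% (929 TPM) and of Gins3 27.7% (15.8 TPM). Without the highest cell inside the 13, it was 26.1% for Timeless, 4.26% for Chaf1b, 0.303% for Orc1 and 0% for Gins3.

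**Figure D4:**
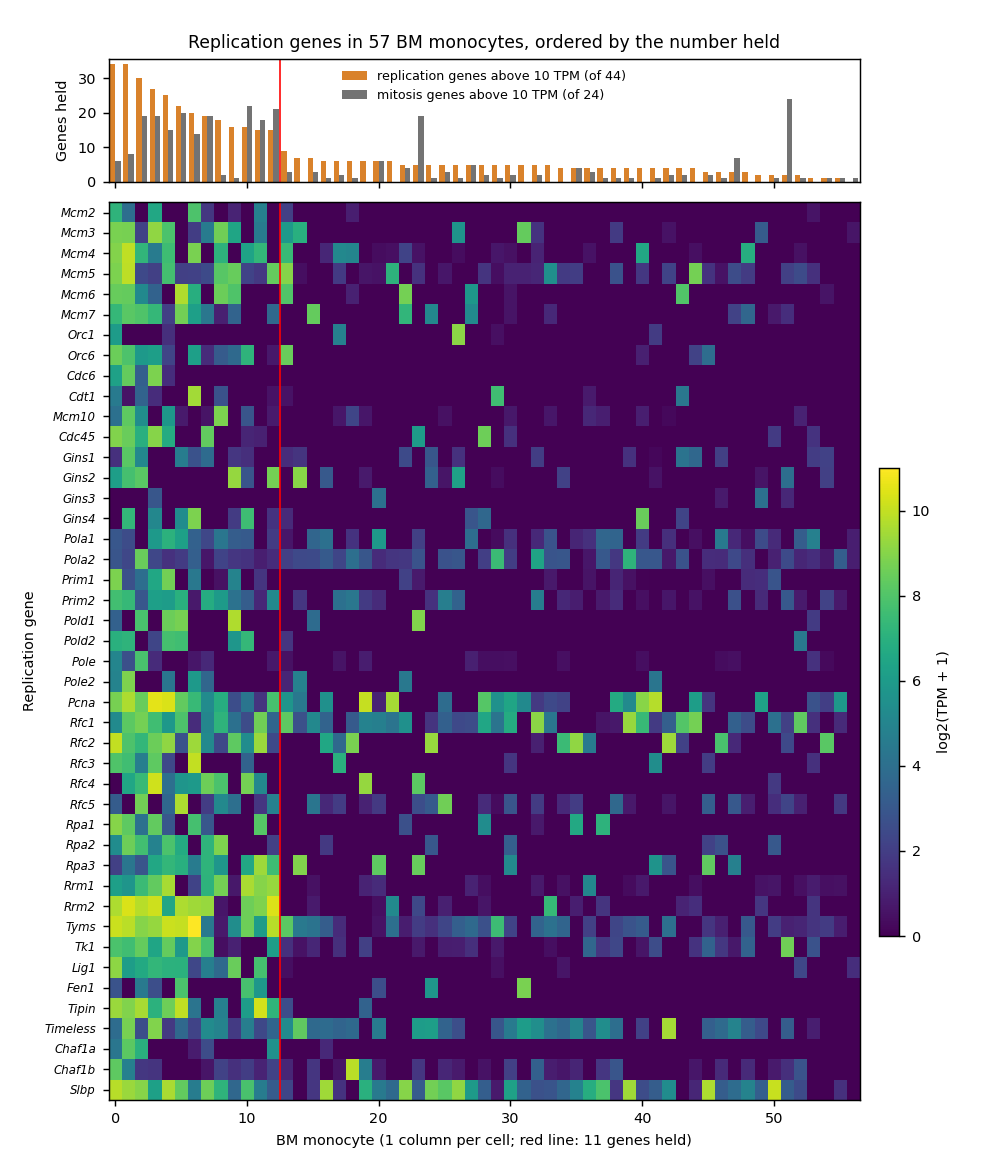
Replication genes in the 57 marrow monocytes, 1 column per cell ordered by the number of members held, with colour for log2(TPM + 1) and bars above for the replication genes (of 44) and mitosis genes (of 24) above 10 TPM. The 13 cells left of the red line hold 15 to 34 members, while Slbp, Rfc1, Pcna and Timeless are also seen across the cells to the right.

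Mitosis genes, which are used in the division that follows S phase, gave a view that the choice of the 13 cells did not use. The list held 24 genes such as Top2a, Cdk1, Ccnb1, Cdca8 and Aurkb. At least 6 of them lay above 10 TPM in 60 of 66 cMoP (90.9%), 15 of 57 marrow monocytes (26.3%, 15.5 to 39.7%) and 0 of 38 blood monocytes. 11 marrow monocytes passed both limits, which is 84.6% of those with replication genes and 73.3% of those with mitosis genes. Marrow monocytes 18 and 2 held 18 and 16 replication genes with 2 and 1 mitosis genes. In marrow monocyte 18 the highest members were Rpa2 at 464 TPM, Mcm10 at 459 TPM and Rrm1 at 410 TPM, and in marrow monocyte 2 they were Pold1 at 820 TPM, Gins2 at 615 TPM and Lig1 at 358 TPM. The reverse was seen in marrow monocyte 48, with 24 of 24 mitosis genes, 1251 TPM of Ccnb1 and 2 replication genes, Tk1 at 392 TPM and Gins2 at 14.5 TPM, and in marrow monocyte 9, with 19 mitosis and 5 replication genes. Marrow monocytes 19 and 36 lay just above the mitosis limit with 7 and 6 genes. Over the 57 cells, the number of members held had a Pearson correlation of 0.58 (Spearman 0.49) with the number of mitosis genes held, and of 0.64 (Spearman 0.57) with the number of genes above 1 TPM. With mitosis genes it was 0.23 (Spearman 0.27) over the 66 cMoP and 0.08 (Spearman -0.25) over the 38 blood monocytes. Over the 49 cMoP without high mitochondrial share and with a flow cell in the label it was 0.06 (Spearman 0.06). The part of genes per cell in these counts was not tested.

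**Figure D5:**
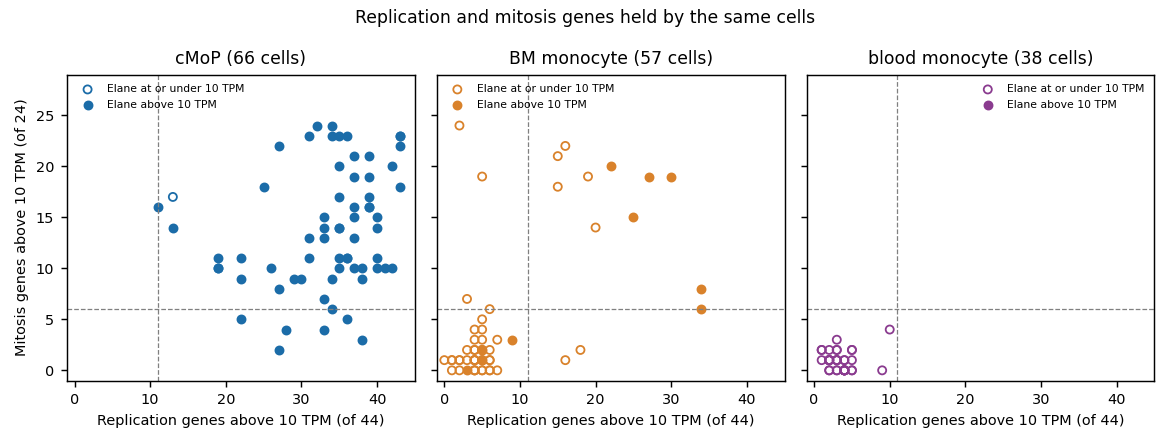
Replication genes (of 44) against mitosis genes (of 24) above 10 TPM in each cell of the 3 populations, with dashed lines at 11 and 6 genes and filled points for cells with Elane above 10 TPM. In marrow monocytes 11 cells lie in the upper right, 2 in the lower right and 4 in the upper left, and all blood monocytes lie in the lower left.

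Of the 10 classical monocyte markers, 7 were above 10 TPM in all 13 cells, while Ccl6 was so in 11, Chil3 in 8 and Vcan in 6, against 55, 42 and 26 of all 57 marrow monocytes. The list summed to 35081 to 72416 TPM in the 13 (median 54469) and to 7079 to 112835 TPM in all marrow monocytes (median 66771). In the other 44 marrow monocytes the median sum was 75099 TPM. Ly6c2 was at 2038 to 12756 TPM in the 13 cells, with a median of 7617 TPM against 4632 TPM in the other 44. Ccr2, the chemokine receptor for exit from the marrow, was at 183 to 1729 TPM, with medians of 1099 and 1495 TPM. Fn1 was at 283 to 2642 TPM, with medians of 728 and 1053 TPM. Lyz2, the lysozyme of myeloid cells, was at 21158 to 55201 TPM, with medians of 37459 and 58468 TPM. The highest Lyz2 value in any cMoP was 5659 TPM. Kit and Ms4a3 were listed at 0 in all 13. Transcripts of primary granules, which are made in the progenitor, were found in some: Elane above 10 TPM in 6 of the 13 and 10 of all 57 marrow monocytes, Prtn3 in 5 and 10, Ctsg in 6 and 6 and Mpo in 1 and 1. The other progenitor markers were mixed: Cd34 was above 10 TPM in 0 of the 13 and 12 of all 57, Cdk6 in 5 and 19 and Myb in 3 and 3. Marrow monocyte 22 had 1335 TPM of Elane, inside the cMoP range of 9.34 to 20484 TPM, and marrow monocyte 33 had 89.7 TPM of Mpo, under the lowest cMoP value of 917 TPM. The sum of the 9 progenitor and granule markers was 4.41 to 2321 TPM in the 13 cells, 0 to 2321 TPM in all marrow monocytes and 2562 to 57621 TPM in cMoP, so no marrow monocyte reached the cMoP range of this sum. Single genes did: marrow monocyte 10 had 476 TPM of Prtn3 and 569 TPM of Ctsg, inside the cMoP ranges of 70.5 to 3743 and 3.85 to 3503 TPM.

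Markers of other marrow cell types were mostly at 0 or low in these 13 cells, except for neutrophil genes. Of the B cell list 6 of 10 genes were at 0 in all of them, among them Cd79a, Pax5 and Igll1, and the sum reached at most 330 TPM, of which Cd79b gave 327 TPM in 1 cell. Of the erythroid list 7 of 10 genes were at 0, with sums of 0 to 206 TPM, and Klf1 was at 199.8 TPM in 1 cell. Of the T and NK list 6 of 9 were at 0, with sums of 0 to 34.2 TPM. Neutrophil markers summed to 53.8 to 1439 TPM in the 13 cells and 4.60 to 1439 TPM in all marrow monocytes, with Ltf, Camp and Ngp at 0 and Mmp8 and Ly6g as the highest. Dendritic cell markers summed to 0 to 416 TPM in the 13 (median 4.21) and 0 to 1627 TPM in all marrow monocytes (median 8.81). The highest of them in the 13 was Bst2, which reached 414 TPM and was above 10 TPM in 3 cells. Basophil, mast cell and megakaryocyte markers summed to at most 0.28 TPM in the 13. The part of these transcripts in the counts was not tested. The 13 cells had 4778 to 5938 genes above 1 TPM, in the upper part of the range of 3031 to 5938 over all marrow monocytes, and all lay among the cells with 4500 to 6000 genes. Mitochondrial shares were 2.60 to 7.87% of TPM in them and 0.875 to 9.47% in all marrow monocytes.

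Outside the set, the genes whose log2 level followed the number of members held most closely over the 57 marrow monocytes were taken from 10742 genes compared. Predicted genes (Gm and Rik names) and mitochondrial, ribosomal protein and microRNA rows were left out of the ranking. The 10 with the highest Pearson correlation were then Ncapg2 (0.87), Uhrf1 (0.84), Asf1b (0.82), Clspn (0.82), Casc5 (0.80), Slc43a3 (0.78), Pbk (0.77), Dut (0.75), Top2a (0.74) and Hist1h2ap (0.74). Their Spearman correlations were lower, from 0.41 for Casc5 to 0.66 for Ncapg2, with 0.48 for Clspn. Ncapg2 and Clspn were above 10 TPM in only 8 and 7 of the 57 cells. Uhrf1 guides the copying of DNA methylation, Asf1b is a histone chaperone, Clspn is a checkpoint adaptor at the fork and Dut removes dUTP. Ncapg2 is a condensin subunit, and Slc43a3 encodes a membrane transporter. The cells share a lane and their depth is unknown, so these values describe likeness over 57 cells only. Uhrf1 and Asf1b were above 10 TPM in 12 of the 13 cells and in 14 of all 57 each.

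The other genes of replication, a list of 50 that does not overlap the members, differed by less at the median. 46 were lower in marrow monocytes than in cMoP, 39 by at least 1 log2 unit (background 30.8%) and 27 by at least 2 (background 12.3%), with a median of -2.22. The largest differences were those of Dut at -5.71, Uhrf1 at -5.45, Hells, a chromatin remodeller, at -5.39, Gmnn, the inhibitor of Cdt1, at -4.85 and Nasp, a histone chaperone, at -4.67. The partners of Orc1 and Orc6 in the origin recognition complex differed by -3.07 for Orc2, -1.72 for Orc3, -2.20 for Orc4 and -2.24 for Orc5. Orc3 was widely present, above 10 TPM in 63 of 66 cMoP (95.5%), 42 of 57 marrow monocytes (73.7%) and 28 of 38 blood monocytes (73.7%). 4 of the 50 ran the other way, 2 of them by at least 2 log2 units, a size reached upward by 207 of the 14003 measured genes. The 2 were Samhd1 at 3.51 and a gene of the other polymerase and clamp list at 2.01. Samhd1, an enzyme which breaks down deoxynucleotides, had means of 84.7 TPM in cMoP, 851 TPM in marrow monocytes and 861 TPM in blood monocytes. Rrm2b, the other small subunit of ribonucleotide reductase, was above 10 TPM in 3, 3 and 0 cells. In blood against marrow monocytes 43 of the 50 were lower (background 59.8%), 9 by at least 1 (background 9.66%), with a median of -0.34 beside -0.10 over all measured genes.

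Regulators of the set were mixed. Of 19 E2F and RB regulators, 15 were lower in marrow monocytes than in cMoP, 9 by at least 1 log2 unit and 6 by at least 2, with a median of -0.74. Over all measured genes the shares were 73.5%, 30.8% and 12.3% and the median was -0.45, so the 15 of 19 lie close to the background. Tfdp1, the partner of E2F proteins on DNA, differed by -4.47 and was held by 56 cMoP, 14 marrow monocytes and 3 blood monocytes. Ccne2, a cyclin of S phase entry, differed by -3.97, E2f4, an E2F family member known mainly for repression, by -2.41 and Cdk2, the kinase of the cyclin E proteins, by -2.36. Cdkn1a, an inhibitor of cyclin-dependent kinases, was higher in marrow monocytes by 2.98, with means of 24.2 TPM in cMoP, 232 TPM in marrow monocytes and 375 TPM in blood monocytes. In the 13 marrow monocytes with replication genes it was above 10 TPM in 10, against 21 of the other 44 and 31 of all 57. Its median was 344.6 TPM in the 13 and 2.56 TPM in the other 44, with highest values of 837 and 1970 TPM. The 24 mitosis genes were all lower in marrow monocytes than in cMoP, with a median of -2.15 (background 73.5% lower, median -0.45), and all lower in blood than in marrow monocytes, with a median of -1.20 (background 59.8% lower, median -0.10).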

How the data were processed

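The authors deposited 1 table of TPM values with 161 columns, 1 per cell, and all were matched to labels by name. Per the submitters' processing notes, RSEM 1.2.19 and the mouse build GRCm38 were used. Neither aligner nor annotation is given in the sources used. Per the labels' protocols, reverse transcription used oligo(dT) primers and libraries were made with Nextera XT. Read depth cannot be had from TPM and is unknown. From the TPM, differences of mean log2(TPM + 1) were computed for 3 comparisons with Python 3.11.15, pandas 2.3.3 and scipy 1.17.1. Shares carry 95% exact (Clopper-Pearson) intervals for counting error over cells. The difference function was checked on cells resampled from these data, with 200 genes changed by known factors. Only genes above 1 TPM in a large part of the resampled cells were changed, so sparse genes were not checked. The 44 members, the other lists and the limits were chosen with earlier results of these data known. All members could be named. Of each other list, the 5 genes with the largest absolute difference of BM monocytes against cMoP could be named, plus Orc2 to Orc5 and Rrm2b. Of marker lists, this held for the most abundant genes and the sort genes. It also held for the 10 non-members best correlated with the number of members held in BM monocytes, after the exclusions given with them. Marker genes beyond that rule were named after their values were seen. Alternatives were other pseudocounts, the ratio of mean TPM, other filters and limits, a size factor per cell, and subsets of cells.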

Additional observations from a re-analysis of the deposited data

How the results depend on the processing

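For BM monocytes minus cMoP, all 44 members (43 measured in the subsets of 4500 to 6000 genes) kept their direction under every alternative run, except Gins4, at 0.76 among cells with 4500 to 6000 genes, and Chaf1a, at 0.16 in the same subset once doubted libraries (mitochondrial share over 15% or ribosomal protein share under 5%) were dropped (7 cMoP), and the cause was not tested. Members lower by at least 2 log2 units numbered 23 with a pseudocount of 10 (background 2.23% of genes), 19 by the ratio of means (10.2%) and 25 in the subset of 4500 to 6000 genes (3.30%). The median of that comparison ran from -5.58 with a pseudocount of 0.1 to -1.93 by the ratio of means, with -2.18 at a pseudocount of 10. For blood minus BM monocytes, a pseudocount of 0.1 gave 7 members lower by at least 2 (background 5.03%), and a pseudocount of 10 gave 3 lower by at least 1 (2.92%) and 0 lower by at least 2 (0.164%). The ratio of means gave a median of -2.94, with 33 and 29 members lower by at least 1 and 2 (background 23.5% and 11.8%). Cells with 4500 to 6000 genes gave 29 and 11 (background 13.4% and 3.26%), and 28 and 12 once the doubted libraries were left out too. For blood monocytes minus cMoP the median was -2.67 with a pseudocount of 10. BM monocytes that held the set numbered 30 with members counted above 1 TPM, 22 with at least 6 members and 6 with at least 22, against 10 above 50 TPM, 13 among cells with 4500 to 6000 genes and 12 without the doubted libraries. Blood monocytes that held it numbered 12 above 1 TPM, 2 with at least 6 members and 1 with a size factor per cell, and 17 of the 17 cMoP with 4500 to 6000 genes held it. Larger pseudocounts shrink differences of low genes by construction, and a ratio of means weights cells with high values. The exclusions of doubted libraries with low ribosomal share, and the counts of holding cells in the subset and with the size factor, were chosen after seeing the data. Pola1, at 0.03 for blood minus BM monocytes, was at -0.07 with a pseudocount of 0.1. No paired analysis was possible because replicate numbers only name cells in accession order. The flow cell cannot be told apart from cMoP against monocytes, and transcripts missed in capture limit every share.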
